A study of Mus musculus with 45 samples.

Results

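Lysosomal proteases of mouse microglia are described here through 10 genes: the aspartic protease Ctsd, the serine carboxypeptidase Ctsa, the papain-like cysteine cathepsins Ctsb, Ctsl, Ctss, Ctsf, Ctsh, Ctsz and Ctsc, and the asparaginyl endopeptidase legumain (Lgmn). The genes were chosen by name, and all 10 were present in each of 3 count tables, among 55450, 47643 and 43411 gene identifiers. The tables held 45 C57BL/6 samples in 7 groups. Slice microglia were sorted as CD11b high, CD45 intermediate cells from brain slices of newborn pups that had spent 2 weeks in culture and then 24 hours in medium only (9 samples), in TNF at 50 ng/mL (11 samples) or in GM-CSF at 20 ng/mL (9 samples), with 3 slices pooled per sample per the series' design text. Adult microglia were sorted with the same markers from mice aged 10 to 15 weeks, 24 hours after an intraperitoneal injection of LPS at 1 mg/kg (4 samples) or with PBS as the control (4 samples). Whole brain tissue came from mice of the same age range 24 hours after LPS at 1 mg/kg (4 samples) or without any treatment (4 samples), so the brain control, unlike the microglia control, received no PBS. Per the study's methods the LPS mice were female. The slice groups carry the limits of a culture of neonatal tissue, in which the cytokine also reaches the astrocytes, neurons and oligodendrocytes of the slice. The study describes the in vivo samples as coming from independent mice. For the slices the study's figure legend gives 2 to 3 pooled slices per sample and 4 independent experiments. The slice sample titles carry 4 codes (1A, 1B, 2A and 2B) whose meaning the labels do not give. The codes are spread unevenly, with 1 medium and 3 TNF libraries in 1B, and were tried as a covariate. The sources used here do not say which samples shared an experiment, pup or litter, and the main fit held no term for these or for the codes. The p-values of the slice comparisons therefore measure the spread between these samples, which may be partly technical.

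Cathepsins are made as inactive proenzymes, carried to the lysosome by mannose 6-phosphate receptors and matured there in the acid lumen. Together with legumain they degrade the protein that microglia, the resident macrophages of the brain, take up by phagocytosis, and several of them trim the invariant chain and antigens for loading on MHC class II. Cystatins are small proteins that block the active site of papain-like cathepsins, and some also block legumain. TNF and GM-CSF are cytokines that act on microglia, and LPS is a bacterial cell wall component that activates innate immune cells.

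Positions are those of the GRCm38 assembly (mm10), and all 10 genes are protein-coding in the GENCODE M21 annotation. Ctsd is on the minus strand of chromosome 7 (142375911 to 142388038), and Ctsc is on the plus strand of the same chromosome (88278085 to 88310888). Ctsa is at chromosome 2, 164832873 to 164841032 (plus), and Ctsz at chromosome 2, 174427493 to 174439039 (minus). Ctsb is at chromosome 14, 63122462 to 63145923 (plus), Ctsl at chromosome 13, 64359337 to 64370890 (minus), Ctss at chromosome 3, 95526786 to 95556403 (plus) and Ctsf at chromosome 19, 4855130 to 4860918 (plus). Ctsh is at chromosome 9, 90054152 to 90076089 (plus), and Lgmn at chromosome 12, 102394084 to 102439813 (minus). Ctsd shares 808 bases of exon, 34.4% of its exon length, with the same-strand gene model Gm49369, which had 0 counts in the slice table. Ctsl shares 1742 bases with the antisense model Gm47123 and 395 with the pseudogene Gm49230, both also at 0 counts there. Ctsa, Ctsb and Ctsz share 10 to 774 exon bases with opposite-strand neighbours, and the strand setting of the counting is not given in the sources used here. Levels of these 5 genes are uncertain to the extent that shared reads were dropped or assigned to the neighbour.

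The promoters are shown as a description, because the genes were read as a family. The main motif was picked for its link to lysosomal regulators and the genes as lysosomal proteases, so these choices are not independent. RefSeq start sites of GRCm38.p6 were found for 8 of the 10 genes, in 10 windows from 250 bases before to 50 bases after a start; Ctsb and Ctsh had no entry. The windows were searched on both strands for CACGTG, the E-box at the core of the element bound by the lysosomal regulators TFEB and TFE3. It was found in 5 of the 8 genes (62.5%), against 28.1% of the 57 genes with a window among 72 other lysosomal genes and 8.09% of all 27025 genes with a window. The matches of Ctsa, Ctsl and Lgmn, and that of Ctsd at -98, lie inside the gene positions given above, downstream of the outermost annotated start. The windows at the outer starts of Ctsa and Lgmn held 0 E-boxes. Of the 250 bases before the start, 211 in Ctsd and 164 in the Ctsa window with matches lay in the gene's own annotated exons. These matches therefore need not lie in a promoter. The 7 matches are printed 5′ to 3′ along the gene's strand with up to 10 bases on either side and the E-box in capitals, positions being counted from the start site at 1.
Ctsd, from -245, chr7:142388057-142388077, minus strand: tccccCACGTGacctgtatcc
Ctsd, from -98, chr7:142387910-142387935, minus strand: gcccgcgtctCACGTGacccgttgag
Ctsa, from -12, chr2:164833751-164833776, plus strand: agcaaactgtCACGTGatgcagatgc
Ctsa, from 6, chr2:164833768-164833793, plus strand: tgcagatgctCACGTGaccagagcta
Ctsf, from -79, chr19:4855076-4855101, plus strand: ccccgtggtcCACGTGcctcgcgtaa
Ctsl, from -236, chr13:64370741-64370766, minus strand: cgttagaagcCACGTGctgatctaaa
Lgmn, from -49, chr12:102439126-102439151, minus strand: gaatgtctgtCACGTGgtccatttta

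Ctsc, Ctss and Ctsz held no E-box in these windows. The windows of Ctsc and Ctss each held 2 matches to GAGGAA, the core recognised by the myeloid factor PU.1 (TTCCTC where it lies on the other strand), a motif in 31.3% of all genes with a window. In Ctss the second of them begins at position 1 and so lies outside the bases printed here. Ctss alone of the 8 held the core of the interferon-stimulated response element (ISRE), as did 3.99% of all genes with a window, and its letters there were GAAACCGAAA. The 250 bases before the starts of Ctsc and Ctss are printed with these matches in capitals. They are shown because Ctsc was the only member that was higher under each of the 4 treatments, and Ctss because it carries the interferon motif. A match describes letters in this window and not a bound site.
Ctsc, chr7:88277835-88278084, plus strand: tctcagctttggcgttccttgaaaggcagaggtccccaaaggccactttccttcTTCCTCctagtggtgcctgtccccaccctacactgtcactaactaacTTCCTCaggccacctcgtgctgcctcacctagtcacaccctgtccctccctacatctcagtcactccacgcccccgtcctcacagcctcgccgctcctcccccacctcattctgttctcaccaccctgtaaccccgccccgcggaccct
Ctss, chr3:95526536-95526785, plus strand: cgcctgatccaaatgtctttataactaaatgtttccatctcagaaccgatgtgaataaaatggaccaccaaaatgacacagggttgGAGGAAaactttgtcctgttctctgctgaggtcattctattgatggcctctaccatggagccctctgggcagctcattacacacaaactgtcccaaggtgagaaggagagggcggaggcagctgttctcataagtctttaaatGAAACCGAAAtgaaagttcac

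Depth per library ranged from 5973364 to 9165485 counts for the slices, from 11391564 to 14216005 for adult microglia and from 8199863 to 10368578 for brain tissue, where the LPS libraries were shallower than the untreated ones without overlap. All 8 microglia markers fixed for the check were detected in all 45 libraries. Summed, they reached 20486 to 28916 CPM (counts scaled to library size with TMM factors) in medium, 12200 to 15985 with TNF and 15406 to 17092 with GM-CSF, with no overlap between medium and either cytokine. They reached 55601 to 61735 CPM with PBS and 43313 to 47091 with LPS in adult microglia, and 294 to 328 against 293 to 475 CPM in untreated and LPS brain tissue. The 4 neutrophil markers summed to 32.5 to 69.3 CPM with PBS and 1.61 to 7.66 with LPS in the adult cells. In brain tissue they summed to 0.503 to 1.03 CPM untreated and 2.95 to 7.08 with LPS. The part of these shifts in the results on the cathepsins was not tested.

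All 10 genes were abundant in microglia. Together they took 6.37% ± 0.609 (SD, n = 9) of all counts in medium, 4.03% ± 0.0890 (n = 4) in PBS adult microglia and 0.125% ± 0.0012 (n = 4) in untreated brain tissue. With TNF the share was 4.93% ± 0.511 (n = 11) and with GM-CSF 4.53% ± 0.362 (n = 9). The GM-CSF libraries (4.16% to 5.20%) lay below all medium libraries (5.46% to 7.27%), whereas the TNF libraries (4.22% to 5.79%) overlapped them. In adult microglia the share with LPS, 3.77% to 4.14%, overlapped that with PBS, 3.93% to 4.13%. Both overlaps hold for the share of counts and not for the sum corrected for gene length, given below.

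To set the genes against each other, counts were divided by exon length and scaled to the same total in every library, as for TPM (level per kilobase). Ctsd had the highest level per kilobase in every control, with 23080 ± 3899 (n = 9) in medium, 27105 ± 619 (n = 4) in PBS microglia and 423 ± 12.3 (n = 4) in untreated brain tissue. In medium Ctss (12377 ± 1066), Ctsz (9754 ± 1289), Ctsb (8420 ± 1263) and Lgmn (5914 ± 818) followed, and the ranges of neighbours in this run overlapped. Below them came Ctsa (3071 ± 772), Ctsl (1470 ± 234), Ctsc (927 ± 109) and Ctsh (628 ± 86.3), and Ctsf was lowest at 173 ± 39.9. Of these, Lgmn and Ctsa, Ctsl and Ctsc, and Ctsh and Ctsf were separated.

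The order was not the same in adult microglia. With PBS the level per kilobase of Lgmn (6803 ± 759, n = 4) stood above those of Ctsz (4347 ± 153) and Ctsb (2017 ± 26.9), and Ctsc (595 ± 18.9) and Ctsh (560 ± 17.8) were the only neighbours whose ranges overlapped. In untreated brain tissue Ctsb ranked next to Ctsd, at 287 ± 5.41 (n = 4), and Ctsh (4.81 to 6.17) and Ctsc (4.61 to 5.42) were lowest and overlapped. The brain table differs from both microglia tables in library kit. The slice and adult tables share the kit but differ in sequencing and in the kind of counts, whole-number or expected. Levels between tables are therefore set side by side with no test. The level per kilobase depends on the length used. With the length of the longest transcript in place of the union of exons, Ctsd, then Ctss, stayed highest in both kinds of control microglia, but Ctsl (408) and no longer Ctsf (522) was lowest in PBS microglia, and Ctsb (8241) passed Ctsz (7484) in medium.

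**Figure D1:**
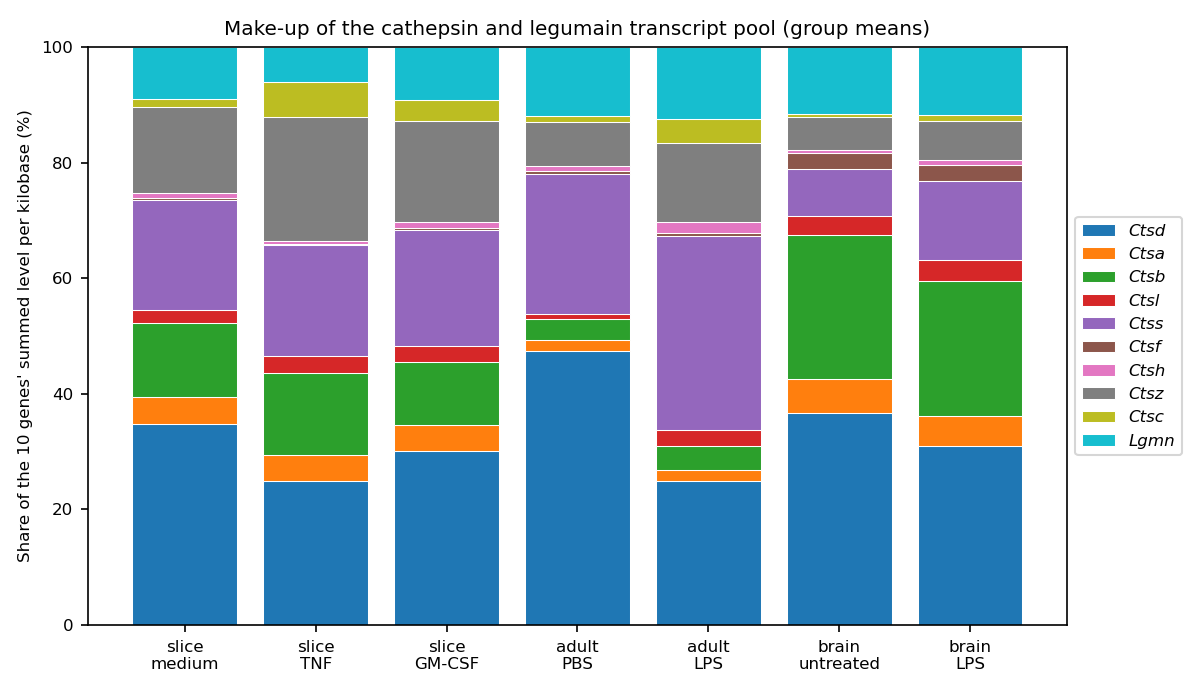
Share of each gene in the summed level per kilobase of the 10 genes, in percent, as group means over 4 to 11 libraries; each bar is a group and sums to 100. Ctsd made up 34.9% of the sum in medium and 24.9% with TNF, and 47.4% with PBS against 24.9% with LPS in adult microglia, where Ctss grew from 24.2% to 33.6%.

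The make-up of this protease pool differed between treatments, and so did its sum. The summed level per kilobase was 57695 to 75011 in medium, 38252 to 53816 with TNF and 40675 to 51910 with GM-CSF. Both cytokine groups thus lay wholly below medium, unlike the share of counts with TNF. In adult microglia the sum was 55640 to 58907 with PBS and 51273 to 54428 with LPS. In brain tissue the sum was 1128 to 1177 untreated and 1330 to 1415 with LPS. Ctsd made up 34.9% ± 2.42 (n = 9) of the summed level per kilobase in medium and 24.9% ± 2.71 (n = 11) with TNF, with no overlap (30.7% to 37.7% against 19.9% to 28.9%). Ctsc made up 1.43% ± 0.289 in medium, 5.98% ± 0.949 with TNF and 3.69% ± 0.521 (n = 9) with GM-CSF. In adult microglia Ctsd fell behind Ctss after LPS: it made up 47.4% ± 0.596 (n = 4) with PBS and 24.9% ± 2.29 (n = 4) with LPS, and Ctss 24.2% ± 0.758 and 33.6% ± 1.99. In brain tissue Ctsd remained the largest share with LPS, at 30.9% ± 1.02 (n = 4) against 36.7% ± 0.667 (n = 4) untreated. Shares within a sum move together by construction, and the plot of the pool's make-up shows them for all 7 groups.

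**Figure D2:**
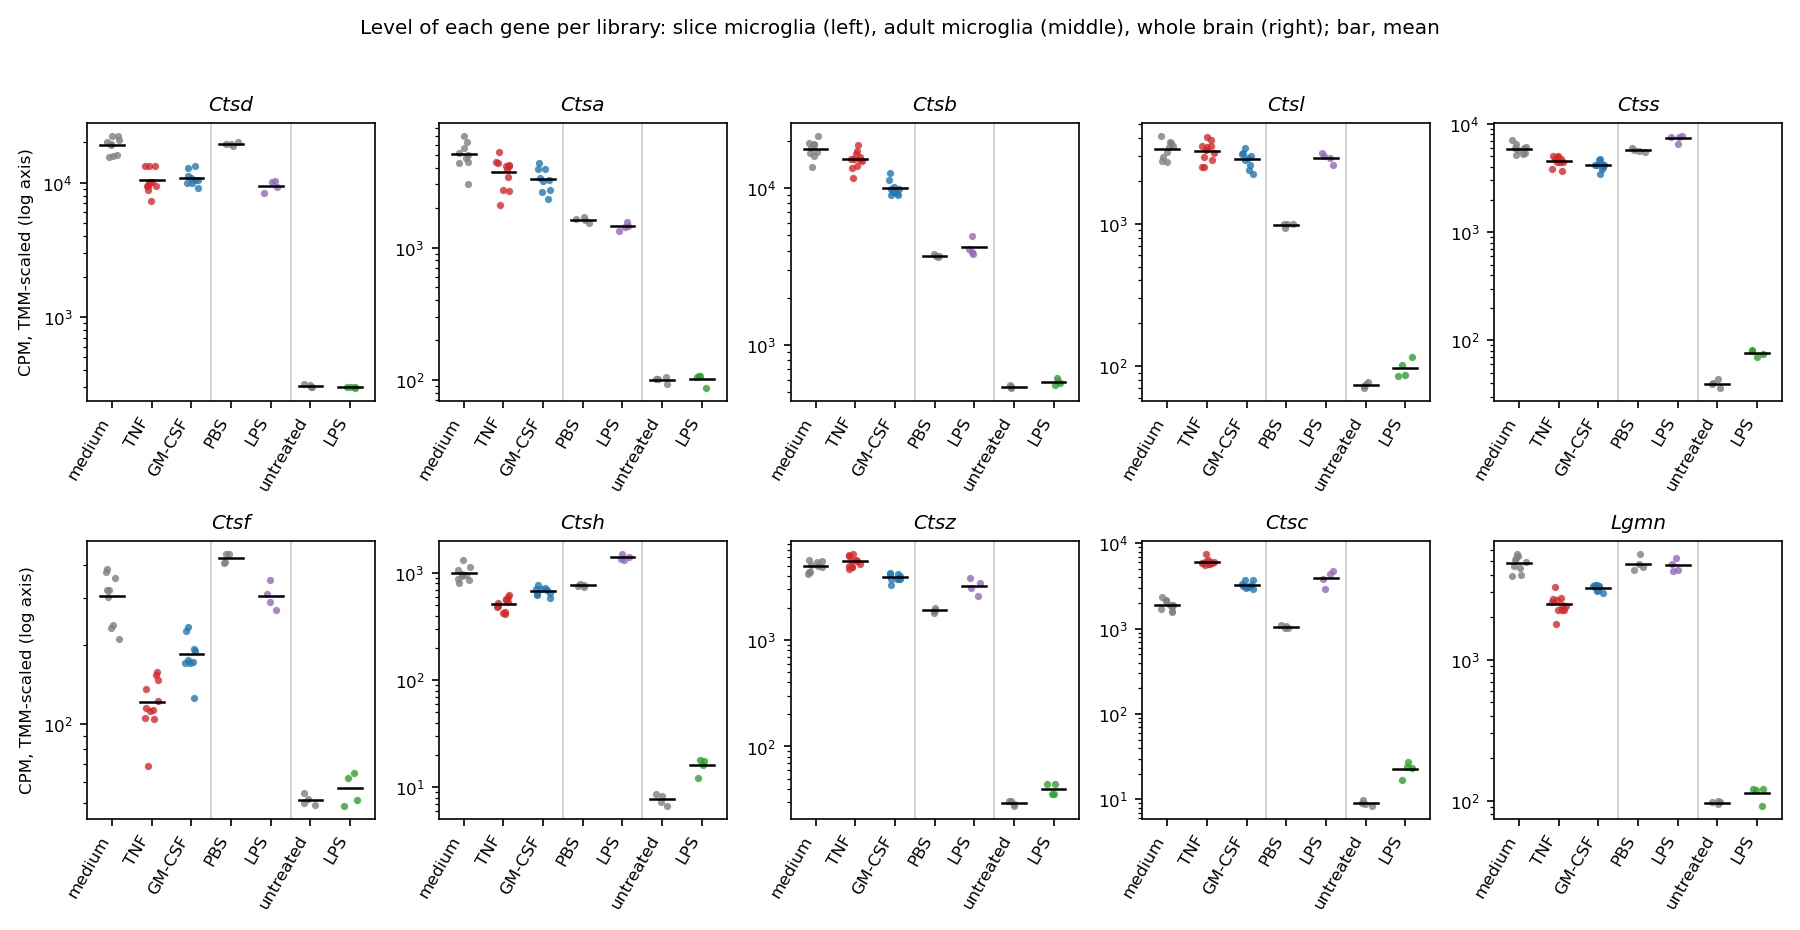
CPM of each gene in every library on a log axis, with slice microglia on the left, adult microglia in the middle and whole brain tissue on the right of each panel; points are libraries and bars are group means. Ctsc was higher in all 11 TNF, all 9 GM-CSF and all 4 LPS libraries of each in vivo table than in any control library, and Ctsd was lower with TNF, with GM-CSF and with LPS in adult microglia.

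With TNF in slice microglia, Ctsc rose 3.20-fold while Ctsd, Ctsf, Ctsh and Lgmn fell, by factors of 1.82 to 2.52. These 5 of 10 genes passed the test, an adjusted p under 0.05 by edgeR's quasi-likelihood test with a fold change over 1.5, against 20.8% of all 11313 genes tested. In 1 direction each, 1 gene was higher, where the background was 9.1%, and 4 were lower, where it was 11.7%. The median log2 fold change was -0.40 over the 10 genes and -0.03 over all genes tested. The groups did not overlap for 6 of the 10 genes, against 10.3% of all genes tested. By direction, 1 gene lay above all medium libraries (background 6.25%) and 5 lay below (4.01%).

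Ctsc encodes dipeptidyl peptidase 1, which removes dipeptides from protein ends and activates the serine proteases of granulocytes and lymphocytes. Its level ran from 1577 to 2324 CPM (median 1888) in the 9 medium libraries and from 5595 to 7551 (median 5957) in the 11 TNF libraries. All TNF libraries were thus above all medium libraries, and the log2 fold change was 1.68 (SE 0.07, adjusted p 3.14e-20).

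Ctsf, a cysteine cathepsin of macrophages that can cut the invariant chain, fell most among the lower genes. It ran from 209 to 386 CPM (median 322) in medium and from 69.3 to 158 (median 115) with TNF, which put the log2 fold change at -1.33 (SE 0.12, adjusted p 5.5e-11). Ctsh, an aminopeptidase, ran from 809 to 1334 CPM (median 960.1) in medium and from 414 to 626 (median 524) with TNF (log2 -0.95, SE 0.08, adjusted p 6.15e-12). Neither pair of groups overlapped. Lgmn, which cuts after asparagine and processes other cathepsins, ran from 3915 to 5643 CPM (median 4969) in medium and from 1786 to 3291 (median 2446) with TNF (log2 -0.96, SE 0.08, adjusted p 9.86e-13). Ctsd, a main endoprotease of the lysosome, ran from 15363 to 22271 CPM (median 19293) in medium and from 7319 to 13346 (median 9916) with TNF (log2 -0.87, SE 0.10, adjusted p 2.32e-09). All 11 TNF libraries were below every medium library for both.

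For 3 further genes the adjusted p was under 0.05 but the fold change was under 1.5, which brings those under 0.05 at any fold to 8 of 10 (background 39.6%), 1 of them higher (19.9%) and 7 lower (19.7%). Ctss, the cathepsin that completes the trimming of the invariant chain in antigen-presenting cells, was lower within 1.5-fold (log2 -0.37, SE 0.07, adjusted p 2.07e-05), with 3664 to 5020 CPM in TNF below 5136 to 7064 in medium. Ctsa, a carboxypeptidase that also protects beta-galactosidase and neuraminidase in a complex, was at log2 -0.43 (SE 0.14, adjusted p 0.0156) with overlapping groups. Ctsb, which acts as endo- and exopeptidase, was at log2 -0.22 (SE 0.08, adjusted p 0.0208), also with overlap. Ctsl, a broad endoprotease, had 2491 to 4077 CPM with TNF and 2707 to 4143 in medium (log2 -0.05, 95% interval -0.23 to 0.14). Ctsz, a carboxypeptidase, had 4640 to 6465 CPM with TNF and 4164 to 5585 in medium (log2 0.15, 95% interval 0.01 to 0.29, adjusted p 0.0725). Microglia markers were lower in the same libraries: 4 of 8 passed as lower with TNF, among them P2ry12 (log2 -3.16, SE 0.11), and 2 of 4 border macrophage markers did, Mrc1 (log2 -1.70, SE 0.24) and Lyve1 (log2 -3.15, SE 0.90). The border macrophage markers summed to 35.2 to 108 CPM with TNF and 89.7 to 214 in medium, with overlap. Of the markers of other cells, S100a8 of neutrophils (log2 2.18, SE 0.67), 1 of 2 tested, and Mag of oligodendrocytes (log2 0.62, SE 0.21), 1 of 3 tested, were higher. Cd79b of B cells was lower (log2 -0.98, SE 0.18). The neutrophil markers summed to 104 CPM in TNF replicate 6, where the TNF median was 7.87, and to 0.134 to 13.8 CPM in medium. The oligodendrocyte markers summed to 51.3 to 160 CPM with TNF and 67.0 to 146 in medium, with overlap. The part of these markers in the cathepsin levels was not tested.

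**Figure D3:**
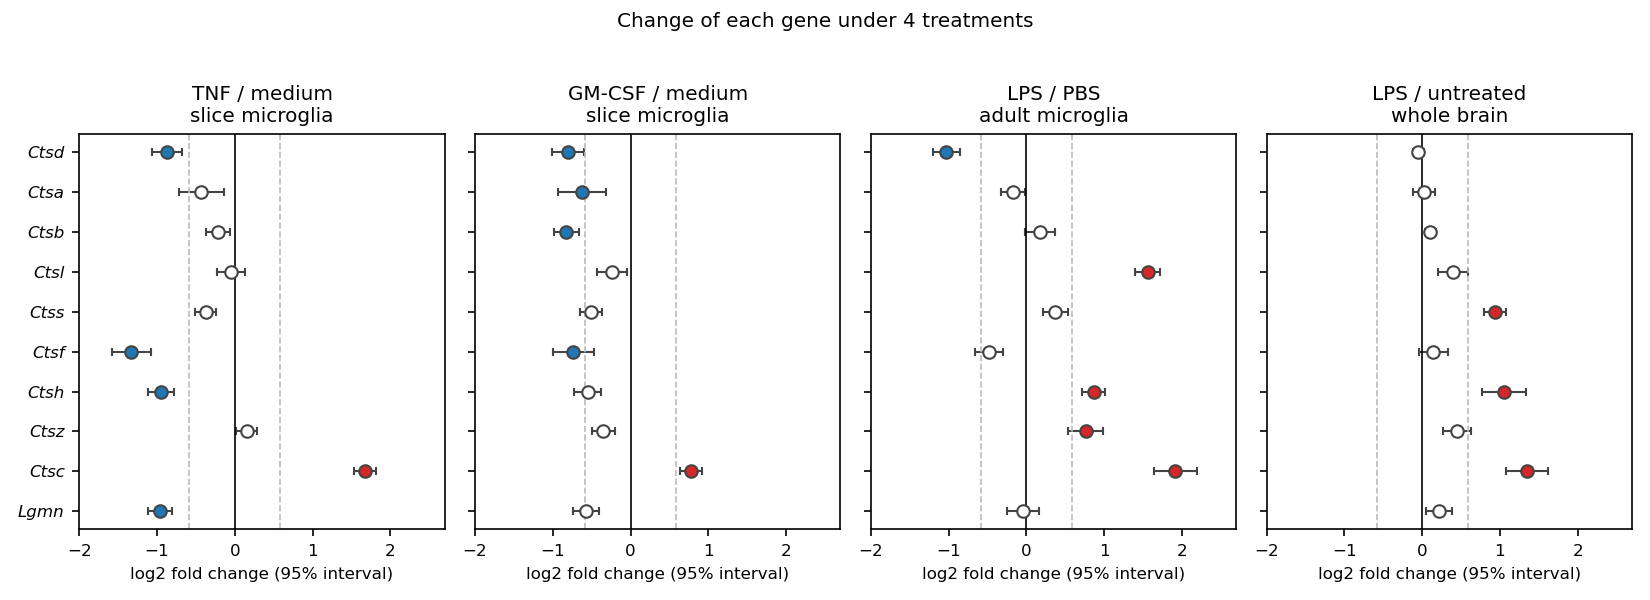
Log2 fold change of each gene with its 95% interval in the 4 treatments, each against its own control; filled points passed the test (red higher, blue lower), open points did not, and dashed lines mark a 1.5-fold change. Ctsc was higher in all 4 panels, from 0.78 with GM-CSF to 1.92 with LPS in adult microglia, while Ctsd was near 0 only in brain tissue (-0.05).

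With GM-CSF, Ctsc was also called higher and 4 genes were called lower, of which Ctsd and Ctsf were called with TNF as well. The other calls differed by the fold limit. Lgmn and Ctsh, called with TNF, fell just short of it with GM-CSF, and Ctsa and Ctsb were lower within 1.5-fold with TNF. Ctsb, Ctsd, Ctsf and Ctsa were lower by factors of 1.54 to 1.77, and Ctsc was 1.72-fold higher. The 5 genes compare with 10.8% of all genes tested, and by direction 1 was higher (background 4.84%) and 4 lower (5.96%). The median log2 fold change was -0.56 over the 10 genes and -0.04 over all. TNF and GM-CSF were compared with the same medium libraries, so their results are not independent of each other.

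Ctsb, which TNF left within 1.5-fold, fell most with GM-CSF. It ran from 9018 to 12557 CPM (median 9884) with GM-CSF and from 13652 to 21618 (median 18144) in medium (log2 -0.83, SE 0.08, adjusted p 7.27e-10), with all 9 GM-CSF libraries below all 9 medium libraries. Ctsd ran from 9054 to 13188 CPM (median 10443) with GM-CSF, again below every medium library (log2 -0.81, SE 0.10, adjusted p 1.14e-07). Ctsf ran from 126 to 232 CPM, with 7 of 9 libraries below every medium library (log2 -0.73, SE 0.13, adjusted p 4.38e-05). Ctsa ran from 2330 to 4371 CPM with GM-CSF and from 2994 to 6980 in medium, with overlap (log2 -0.62, SE 0.15, adjusted p 0.00209). The call of Ctsa was lost under total-count scaling (log2 -0.52), with the title code as a covariate (-0.56) and with the codes 2A and 2B alone (-0.45). Ctsc ran from 2898 to 3737 CPM (median 3137), above every medium library (log2 0.78, SE 0.07, adjusted p 1.21e-10).

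Lgmn, Ctsh, Ctss and Ctsz had an adjusted p under 0.05 and log2 fold changes of -0.57, -0.55, -0.51 and -0.35 with GM-CSF, short of the fold limit of 0.585. For the first 3 of them the groups did not overlap. Lgmn had 2982 to 3382 CPM with GM-CSF, Ctsh 584 to 770 and Ctss 3413 to 4740. In all, 9 of 10 genes were under 0.05 at any fold (background 25.6%), 1 of them higher (12.1%) and 8 lower (13.4%). The groups did not overlap for 6 of the 10 genes, against 5.6% of all genes tested, with 1 above the medium libraries (2.93%) and 5 below (2.67%). Ctsl had a log2 fold change of -0.24 (95% interval -0.43 to -0.05, adjusted p 0.0603). Of the microglia markers, 4 of 8 passed as lower with GM-CSF, P2ry12 with a log2 fold change of -1.56 (SE 0.11), and of the markers of other cells Cd79b did (-0.77, SE 0.19). Their part in these values was not tested.

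The cytokines were compared directly, at doses that differ (50 and 20 ng/mL). Ctsc was 1.87-fold higher with TNF than with GM-CSF (log2 0.90, SE 0.07, adjusted p 3.4e-13), and all 11 TNF libraries were above all 9 GM-CSF libraries. Ctsb was 1.52-fold higher (log2 0.61, SE 0.08, adjusted p 7.52e-08), in 10 of 11 libraries above every GM-CSF library. Ctsf was 1.51-fold lower (log2 -0.60, SE 0.12, adjusted p 0.000232), in 7 of 11 libraries below every GM-CSF library. These 3 of 10 genes compare with 16.2% of all genes tested, 2 higher (background 8.25%) and 1 lower (7.96%). The calls of Ctsb and Ctsf stood close to the fold limit, and each was lost under at least 1 of the alternatives tried. Ctsb had log2 fold changes of 0.43 under total-count scaling, 0.58 without the filter on low counts and 0.49 with the codes 2A and 2B alone.

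Ctsz was higher with TNF than with GM-CSF in all 11 libraries (log2 0.50, SE 0.07, adjusted p 2.21e-07), within 1.5-fold. Ctsh (log2 -0.40) and Lgmn (-0.38) were lower within 1.5-fold, with adjusted p of 0.000166 and 0.000126. At any fold 6 of 10 genes were thus under 0.05 (background 30.8%), 3 of them higher (15.9%) and 3 lower (14.9%). Groups were fully apart for 2 of the 10, Ctsc and Ctsz, against 7.93% of all genes tested and 5.3% with TNF above; with TNF below the count was 0 (background 2.63%). Ctsd (log2 -0.06, 95% interval -0.25 to 0.13), Ctsa (0.19, -0.10 to 0.48), Ctsl (0.19, 0.01 to 0.38) and Ctss (0.13, -0.00072 to 0.27) did not pass.

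In adult microglia 24 hours after LPS, Ctsc, Ctsl, Ctsh and Ctsz rose and Ctsd fell. These 5 of 10 genes compare with 27.4% of all 12987 genes tested, 4 higher with a background of 14.4% and 1 lower with a background of 13%. The median log2 fold change was 0.27 over the 10 genes and 0.01 over all. The groups did not overlap for 7 of the 10 genes, against 47.5% of all genes tested, 5 of them with LPS above (background 24.1%) and 2 below (23.3%).

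Ctsc had 1102, 1061, 1005 and 1029 CPM in the 4 PBS libraries and 4771, 2947, 3791 and 4357 in the 4 LPS libraries. All LPS libraries were above all PBS libraries and varied more among themselves, with a coefficient of variation of 19.9% against 4.02%. The log2 fold change was 1.92 (SE 0.13, 3.78-fold, adjusted p 9.6e-07). Ctsl had 999, 1001, 933 and 996 CPM with PBS and 3145, 2593, 2875 and 2993 with LPS. It thus rose in every library (log2 1.56, SE 0.07, 2.95-fold, adjusted p 6.79e-08).

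Ctsh had 759, 794, 732 and 774 CPM with PBS and 1511, 1341, 1321 and 1417 with LPS. The groups were apart (log2 0.87, SE 0.07, adjusted p 1.56e-06). Ctsz had 1891, 1991, 1812 and 1911 CPM with PBS and 3824, 2609, 3069 and 3395 with LPS, also apart (log2 0.76, SE 0.10, adjusted p 8.01e-05). Ctsd had 20050, 19510, 19205 and 18617 CPM with PBS and 10313, 10093, 9222 and 8339 with LPS. All 4 LPS libraries were below every PBS library, a 2.04-fold lower level (log2 -1.03, SE 0.08, adjusted p 1.53e-06).

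Ctss and Ctsf were apart as well, but within 1.5-fold, and at any fold 7 of 10 genes were under 0.05 (background 51.6%), 5 higher (26.7%) and 2 lower (24.9%). Ctss had 5715, 6013, 5504 and 5613 CPM with PBS and 7749, 6574, 7626 and 7617 with LPS (log2 0.37, SE 0.07, adjusted p 0.00112). Ctsf had 440.5, 443, 410.1 and 411 CPM with PBS and 311, 352, 292 and 271 with LPS (log2 -0.48, SE 0.08, adjusted p 0.00044). Lgmn had 4314 to 5621 CPM with PBS and 4289 to 5241 with LPS, with overlap (log2 -0.04, 95% interval -0.25 to 0.17). Ctsb (log2 0.18, 95% interval -0.01 to 0.36) and Ctsa (log2 -0.17, 95% interval -0.32 to -0.02, adjusted p 0.0583) did not pass. All 5 calls held when any 1 of the 8 libraries was left out. Of the 8 microglia markers, 1 was called lower with LPS, P2ry12 (log2 -2.62, SE 0.29), and 2 higher, C1qa (0.63) and Itgam (0.67). At an adjusted p under 0.05 at any fold, 5 of the 8 were lower and 2 higher. The median log2 fold change of the 8 was -0.34. The monocyte marker F13a1 had 0.144 to 1.13 CPM with PBS and 2.91 to 22.2 with LPS (log2 4.30, SE 0.76), and Ccr2, another, was lower (log2 -0.81, SE 0.18). Mrc1 of border macrophages was higher (log2 0.64, SE 0.20), and Pecam1 of endothelium (log2 -1.59, SE 0.12), Mbp of oligodendrocytes (log2 -0.66, SE 0.15) and all 4 neutrophil markers were lower. The part of these markers in the values above was not tested.

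In whole brain tissue Ctsc, Ctsh and Ctss were higher after LPS, and 0 of the 10 genes were lower. The 3 genes compare with 3.18% of all 15083 genes tested, with 2.63% called higher and 0.55% called lower. The median log2 fold change was 0.31 over the 10 genes and 0.0028 over all. In tissue, a change in the number of microglia and a change in the RNA of each cannot be told apart, and neurons and other glia also contribute reads. Ctsc had 8.85, 9.14, 9.73 and 8.36 CPM in the untreated libraries and 23.4, 24.0, 17.0 and 27.1 with LPS. The groups were apart (log2 1.35, SE 0.13, 2.54-fold, adjusted p 6.62e-06).

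Ctsh had 8.34, 6.71, 8.59 and 7.31 CPM untreated and 16.1, 17.7, 12.3 and 18.2 with LPS (log2 1.06, SE 0.13, 2.08-fold, adjusted p 0.000108). Ctss had 40.0, 36.3, 44.0 and 39.7 CPM untreated and 75.6, 80.9, 70.6 and 80.0 with LPS (log2 0.94, SE 0.07, 1.92-fold, adjusted p 2.46e-07). Both were apart, and for Ctsc, Ctsh and Ctss alike the lowest LPS library was replicate 3. That library also had the lowest summed microglia markers of the 4, 293 CPM against 423 to 475 in the other LPS libraries. Without it the 3 genes still passed.

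Ctsz and Ctsl had an adjusted p under 0.05 in brain tissue within 1.5-fold, so that 5 of 10 genes were under it at any fold (background 10.2%), 5 higher (6.06%) and 0 lower (4.1%). Ctsz had 27.6 to 30.8 CPM untreated and 35.4 to 44.5 with LPS (log2 0.44, SE 0.09, adjusted p 0.00294), and Ctsl 70.1 to 77.4 and 85.9 to 115 (log2 0.40, SE 0.09, adjusted p 0.0138). Ctsb had 529 to 552 CPM untreated and 557 to 610.2 with LPS, without overlap, and did not pass (log2 0.11, SE 0.03, adjusted p 0.0672). Ctsd had 302 to 318 CPM untreated and 296 to 301 with LPS, also without overlap, and the 95% interval of its log2 fold change was -0.12 to 0.02. In all, the groups did not overlap for 7 of the 10 genes, against 16.9% of all genes tested, 6 with LPS above (9.09%) and 1 below (7.81%). Lgmn (log2 0.22, 95% interval 0.05 to 0.39), Ctsf (0.14, -0.04 to 0.33) and Ctsa (0.02, -0.12 to 0.16) did not pass. Beside these values, C1qa was higher in LPS brain tissue (log2 1.27, SE 0.08) and P2ry12 lower (log2 -1.57, SE 0.21), and the sum of the neutrophil markers was higher as given above. Both border macrophage markers tested were higher, Cd163 (log2 0.89, SE 0.25) and Lyve1 (log2 1.68, SE 0.34), and the 4 on the list summed to 2.30 to 3.73 CPM untreated and 5.50 to 6.29 with LPS. Of the endothelial markers 2 of 4 were higher, Pecam1 (log2 1.09, SE 0.08) and Cldn5 (log2 0.78, SE 0.12). Of the 4 astrocyte markers 1 was higher, Gfap (log2 1.36, SE 0.18), and 1 had an adjusted p under 0.05 as lower, within 1.5-fold. The median log2 fold change of these 4 was 0.05. All 4 oligodendrocyte markers had an adjusted p under 0.05 as lower, among them Mog (log2 -0.74, SE 0.16). Their part was not tested.

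The LPS effects in adult microglia and in brain tissue were compared in 1 fit with an interaction term, in which tissue, library kit, sequencing run and kind of control (PBS or untreated) cannot be told apart. The LPS effect was more negative in microglia for Ctsd (difference of log2 fold changes -0.99, SE 0.10, adjusted p 4.51e-07) and Ctsf (-0.63, SE 0.13, adjusted p 0.000634) and more positive for Ctsl (1.16, SE 0.12, adjusted p 4.4e-07). These 3 of 10 genes compare with 19.7% of all 16676 genes tested, 1 with a more positive difference (background 9.1%) and 2 with a more negative one (10.6%). At any fold it was 5 of 10 (30.8%), 2 more positive (14.5%) and 3 more negative (16.3%). For Ctss the effect was larger in brain tissue (difference -0.58, SE 0.11, adjusted p 0.000357), at the edge of the fold limit, and for Ctsc it was larger in microglia (0.56, SE 0.20, adjusted p 0.0433), within it. For Ctsh (-0.20, 95% interval -0.50 to 0.10), Ctsz (0.31, -0.00029 to 0.62), Lgmn (-0.27, -0.57 to 0.02), Ctsa (-0.20, -0.42 to 0.02) and Ctsb (0.06, -0.16 to 0.28) no difference passed. Ctsd was 2.04-fold lower in sorted microglia and 1.03-fold lower in the tissue, where it did not pass.

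Side by side, the 4 treatments differed in which of the 10 genes passed. Ctsc was called higher in all 4. Ctsd was called lower in the 3 microglia comparisons, with log2 fold changes of -0.87, -0.81 and -1.03. Ctsh was called lower with TNF and higher with LPS in both in vivo tables, and was lower within 1.5-fold with GM-CSF (log2 -0.55). Lgmn was called lower with TNF (log2 -0.96), was lower within 1.5-fold with GM-CSF (-0.57) and was close to its control with LPS in adult microglia (-0.04). Ctsl did not pass with TNF (-0.05) or GM-CSF (-0.24) and was higher with LPS in adult microglia (1.56). The slice and in vivo effects were not tested against each other, since stimulus, age, culture and library run all differ between them.

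**Figure D4:**
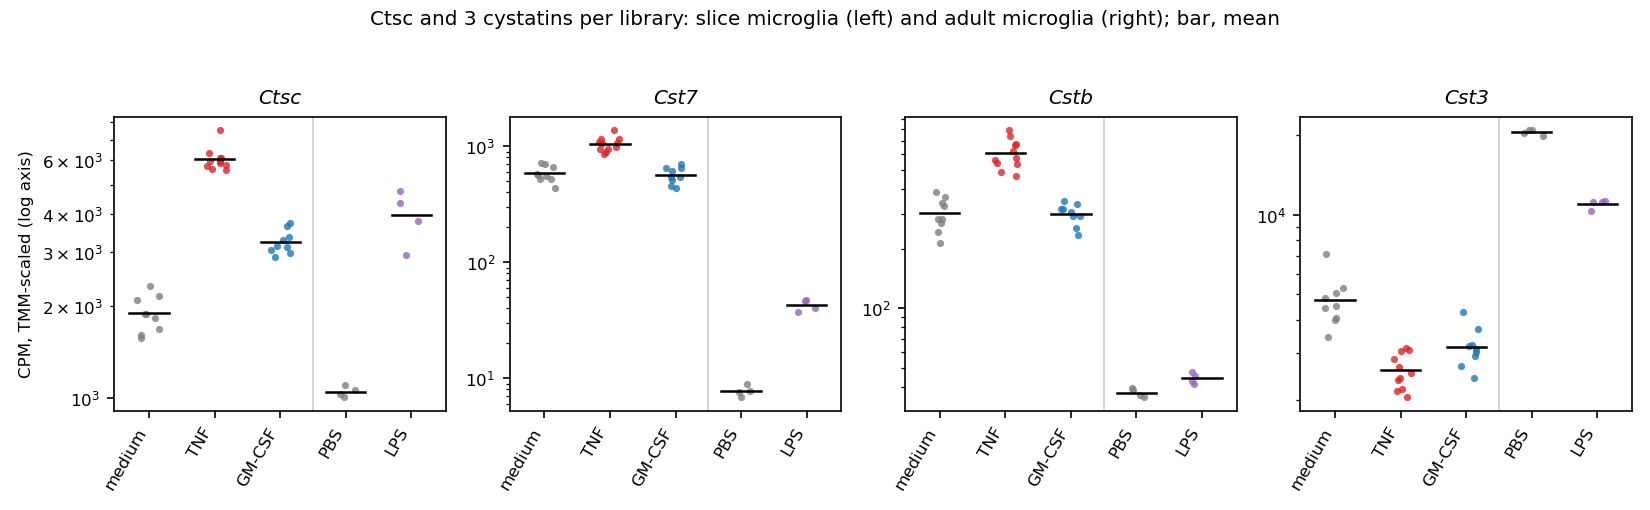
CPM of Ctsc and of 3 cystatins in every microglia library on a log axis that differs between panels; points are libraries and bars are group means. Cst7 was higher with TNF (848.8 to 1381 CPM) than in medium (435 to 711), and Cst3 was lower with TNF and with LPS than in the respective control.

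The inhibitors of these proteases changed in both directions. Of 7 cystatin genes listed, 3 were tested in slice microglia and all 3 passed with TNF. Cst7, cystatin F, a lysosomal inhibitor that acts on cathepsin C, ran from 435 to 711 CPM in medium and from 848.8 to 1381 with TNF, with no overlap (log2 0.85, SE 0.09, adjusted p 3.11e-09). Cstb, a cytosolic inhibitor of papain-like cathepsins, ran from 213 to 388 and from 466 to 794 CPM (log2 1.01, SE 0.10, adjusted p 3.47e-10). Cst3, the secreted cystatin C, ran from 3448 to 7089 CPM in medium and from 2046 to 3146 with TNF (log2 -0.87, SE 0.10, adjusted p 1.46e-08). With GM-CSF 0 of the 3 passed with the fold limit, and Cst3 was at log2 -0.58 (SE 0.11, adjusted p 0.000107), while Cst7 (-0.04, SE 0.10) and Cstb (-0.01, SE 0.11) were near 0.

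With LPS in adult microglia Cst7 rose and Cst3 fell. Cst7 had 7.82, 8.91, 7.57 and 6.85 CPM with PBS and 47.3, 40.5, 37.1 and 46.4 with LPS (log2 2.46, SE 0.12, adjusted p 7.27e-08). Cst3 had 19909, 20898, 20858 and 20340 CPM with PBS and 11315, 11219, 11177 and 10312 with LPS (log2 -0.90, SE 0.06, adjusted p 9.63e-07). Neither pair of groups overlapped. In brain tissue Cst3 was not called (log2 -0.10, SE 0.05, adjusted p 0.27), and the difference between its LPS effects was -0.81 (SE 0.10, adjusted p 3.97e-06). Cst6, a cystatin of epithelia that also blocks legumain, had 116 counts in the 4 untreated and 167 in the 4 LPS brain libraries (log2 0.69, SE 0.19, adjusted p 0.0328).

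Of 5 other cathepsin genes listed, few were well detected. Ctso, a little-studied cysteine cathepsin, ran from 125 to 193 CPM in medium, from 102 to 156 with TNF and from 77.7 to 112 with GM-CSF, and was called lower with GM-CSF (log2 -0.70, SE 0.09, adjusted p 3.2e-07) but not with TNF (log2 -0.24, SE 0.09, adjusted p 0.028). The direct comparison of the cytokines gave 0.46 for Ctso (SE 0.09, adjusted p 7.66e-05), within 1.5-fold. Ctse, an aspartic protease of antigen-presenting and epithelial cells, was lower with both cytokines: it reached 10.6 to 52.7 CPM in medium, 1.10 to 14.1 with TNF (log2 -2.27, SE 0.35, adjusted p 1.72e-06) and 3.82 to 16.6 with GM-CSF (log2 -1.16, SE 0.35, adjusted p 0.0132). Ctsk, known from osteoclasts, varied from 0 counts to 659 counts between TNF libraries and did not pass. Ctsg, the granule protease of neutrophils, had 1 count in all slice libraries together and 0 counts in the adult microglia libraries. Ctsw, of cytotoxic lymphocytes, did not exceed 20 counts in any library.

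Genes of antigen processing that work with cathepsins were read from a separate list of 7. With TNF, Cd74, the invariant chain that Ctss and Ctsl cut, was higher (log2 1.35, SE 0.15, adjusted p 2.63e-09) and H2-DMa, which helps load MHC class II, was lower (-0.65, SE 0.09, adjusted p 3.87e-07), 1 in each direction of 5 tested. With GM-CSF H2-DMa was higher (1.38, SE 0.10, adjusted p 4.18e-13), 1 of 5. With LPS in adult microglia Ifi30, the lysosomal thiol reductase (2.56, SE 0.08, adjusted p 1.72e-09), and Cd74 (2.52, SE 0.21, adjusted p 1.7e-05) were higher and H2-Eb1 was lower (-1.81, SE 0.36, adjusted p 0.00121), of 7 tested. H2-Eb1 was at most 38 counts per library. In brain tissue 1 of 6 passed, H2-DMb1 (0.90, SE 0.26, adjusted p 0.0412).

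The rest of the lysosome was read from 5 lists with 72 genes: hydrolases and their activators, membrane proteins, proton pump subunits, sorting factors and transcription factors. With TNF 5 of 72 were higher and 17 lower, 30.6% in all against the 20.8% of all genes tested, with a median log2 fold change of -0.34. Of the 38 hydrolases and activators 14 were lower, among them Pla2g15 (log2 -1.16) and Arsb (-1.48), and 1 was higher, Acp2 (0.79). M6pr, the cation-dependent mannose 6-phosphate receptor, was higher (0.91, SE 0.07, adjusted p 1.48e-12), as was Igf2r, its cation-independent counterpart (1.38, SE 0.42, adjusted p 0.00821), while the sorting receptor Sort1 was lower (-0.99, SE 0.17, adjusted p 9.02e-06). Tfeb, a master regulator of lysosomal genes, was lower (-0.82, SE 0.12, adjusted p 1e-06) and its relative Tfec higher (1.56, SE 0.23, adjusted p 7.96e-07). The pump subunit Atp6v0c was higher (0.59, SE 0.06) and the membrane protein Laptm5 lower (-0.78, SE 0.05).

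With GM-CSF 2 of the 72 were higher and 13 lower, 20.8% against 10.8% of all genes, with a median of -0.35. Of these, 12 were hydrolases or activators, among them Grn (log2 -0.61) and Naglu (-0.76), and Scarb2, the receptor that carries glucocerebrosidase, was at log2 -0.59. The 2 that were higher were Tfec (1.41, SE 0.24, adjusted p 1.76e-05) and the proton pump subunit Atp6v0a1 (0.60, SE 0.09, adjusted p 4.82e-06). With LPS in adult microglia 9 of 70 tested were higher and 2 lower, 15.7% against 27.4% of all genes. At any fold 25 of the 70 were higher (26.7% of all genes tested) and 21 lower (24.9%), and the median was -0.03. Cd63, a membrane protein of late endosomes (log2 1.77, SE 0.07), Gusb (0.98, SE 0.07), Galns (1.55, SE 0.11), the pump subunit Atp6v0a1 (0.60, SE 0.09) and Tfec (1.99, SE 0.34, adjusted p 0.000452) were higher, and Hexa (-0.89, SE 0.08) and Sgsh (-0.65, SE 0.10) lower. Acp5, the tartrate-resistant acid phosphatase, was called higher on 13 to 25 counts per LPS library against 1 count in the 4 PBS libraries together, so its fold is not given. In brain tissue 1 of 69 was higher, Cd68 (0.64, SE 0.14), and 1 lower, Sgsh (-0.59, SE 0.14), or 2.9% against 3.18% of all genes.

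Levels of the 10 genes were compared across the 29 slice libraries, which share 3 treatments and 4 title codes, so the values are descriptive. Pearson's r of log2 CPM was above 0 for 33 of 45 pairs of genes with a median of 0.38, and for 25 of 45 pairs with a median of 0.20 after group means were subtracted. The highest value was that of Ctsf and Lgmn (0.95, and 0.74 within groups). Within groups the highest was that of Ctsd and Ctsb (0.87, and 0.67 over all libraries), followed by Ctsd and Ctsz (0.84, and 0.29) and Ctsa and Ctsb (0.82, and 0.75). Ctss and Ctsh kept theirs (0.76, and 0.81 within groups), as did Ctsb and Ctsz (0.81, and 0.77) and Ctsd and Ctsa (0.77, and 0.74). Ctsh and Lgmn did not (0.82, and -0.12 within groups), and Ctsc and Lgmn had -0.90 overall and -0.09 within groups. The sign turned for Ctsd and Ctsh (0.62 over all libraries and -0.61 within groups).

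Outside the 10, the gene most like Ctsd over the same libraries was Hexa, of the hydrolase list (r 0.97, and 0.87 within groups). For Ctsa it was Nucb1 (0.93, and 0.95 within groups), for Ctsf Selplg (0.97, and 0.87), for Ctsc Pilra (0.98, and 0.68), for Lgmn Ldhb (0.96, and 0.77) and for Ctsh Apoc4 (0.96, and 0.71). Ctsb (Gpr137b, 0.93), Ctsz (Tesk1, 0.88), Ctss (Dok3, 0.88) and Ctsl (Slc12a9, 0.79) completed the list.

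How far the libraries of a group varied in these genes differed by group. The medians beside the values are over all genes tested and were not matched to the counts of the 10 genes. In PBS microglia the coefficient of variation of CPM was 2.13% (Ctsb) to 4.21% (Ctsf) for 9 of the genes and 12.01% for Lgmn, where the median of all genes tested was 8.80%. In medium it was 10.3% (Ctss) to 22.8% (Ctsa) and below the median of 23.1% for all 10. It was below the median for all 10 with GM-CSF as well, and for all but Ctsa with TNF. In adult microglia with LPS, Ctsc (19.9%) and Ctsz (15.9%) were above the median of 13.5%, and in untreated brain tissue Ctss (7.91%) and Ctsh (11.4%) were above that of 6.80%. In brain tissue with LPS it ran from 0.771% (Ctsd) to 18.4% (Ctsc), and 7 of the 10 genes were above the median of 9.49%.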

How the data were processed

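RNA-seq of mouse microglia and brain tissue was analysed from 3 tables. For slice microglia the authors deposited whole-number read counts per gene. For adult microglia and brain tissue they deposited expected counts, estimated counts that need not be whole, of which 70872 and 69680 values were rounded. Neither kind was normalized. The submitters' processing notes name mm10 for all samples, and STAR 2.7.0a and featureCounts (Subread 1.6.4) for the slice samples. Tools of the other tables, strand setting and annotation: not given in the sources used here. Per the labels, microglia libraries were made with SMART-Seq v4 and Nextera XT and brain libraries with TruSeq mRNA kits. For brain tissue, 92 spike-in rows held 0 counts and were left out. Columns without a sample numbered 0.

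Identifiers were named with GENCODE M21. Libraries of a group were compared pairwise: 0 pairs were identical, and chi-square per degree of freedom was at least 1.80. Tests used edgeR 4.0.16 (R 4.3.3): TMM scaling, filterByExpr (minimum count 10, minimum total 15), robust quasi-likelihood F test and Benjamini-Hochberg adjustment over all genes of a table. A call needed an adjusted p under 0.05 and a fold change over 1.5, the limits in the study's methods. The 29 slice libraries were fitted together, the 8 adult and 8 brain libraries apart, and all 16 for the interaction. SE is the absolute log2 fold change divided by the square root of F. The tests were tried on simulated counts first. Levels are TMM-scaled CPM or counts per kilobase of exon union scaled as for TPM; correlations used log2 CPM with a prior count of 2. Promoters are from RefSeq on GRCm38.p6.

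The genes and lists were chosen with earlier results of these data known. All 10 genes are named throughout; from each other list at most the 3 genes called in each direction with the smallest p are named, and other cathepsins and cystatins whether called or not. Some genes that this rule allows are not reported here. Alternatives were total-count and RLE scaling, no filter, DESeq2 1.42.0, limma-voom 3.58.1, no fold limit, a replicate block, title codes, 2 groups alone and leaving out each in vivo library.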

Additional observations from a re-analysis of the deposited data

Results flagged for a closer look

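The 6 groups of 4 to 10 libraries (TNF, with 11, was not included) were searched for a library that stood apart by Dixon's 95% limit. Of 60 combinations of gene and group, 4 had such a library, where chance gives about 1 in 20. Ctsa had 86.7 CPM in LPS brain tissue replicate 1, below the next library at 105.5. Lgmn had 91.7 CPM in LPS brain tissue replicate 3, below the next at 118, and the summed microglia markers were lowest in the same library. Ctsl had 933 CPM in PBS microglia replicate 3, below the next at 996. Ctss had 6574 CPM in LPS microglia replicate 2, below the next at 7617.

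The LPS effect differed between adult microglia and brain tissue for 5 genes by the interaction term of edgeR's quasi-likelihood test at an adjusted p under 0.05 whatever the fold. The differences of log2 fold changes, microglia minus brain tissue, were -0.99 for Ctsd (adjusted p 4.51e-07), -0.63 for Ctsf (0.000634), 1.16 for Ctsl (4.4e-07), -0.58 for Ctss (0.000357) and 0.56 for Ctsc (0.0433). The microglia control received PBS and the brain control no treatment, and tissue, kit and run cannot be told apart in this fit.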

How the results depend on the processing

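Numbers of genes called stayed within 1.5 times the reported number for 81 of 86 combinations of comparison and setting. The others came from dropping the fold limit, which by construction can only add calls: 8 with TNF, 9 with GM-CSF, 6 between the cytokines, 5 in brain tissue and 5 for the interaction. Leaving out single libraries gave 5 calls each time in adult microglia, 3 in brain tissue and 3 to 4 for the interaction. Of 800 single fold changes, 766 kept their direction and side of the limits, 16 newly passed, 10 no longer passed and 8 changed sign, all 8 near 0: Ctss between the cytokines under total counts (-0.038), Ctsl with TNF under the replicate block (0.013), Ctsd between the cytokines with codes 1A and 1B alone (0.065), Lgmn in adult microglia without PBS replicate 1 (0.041, range -0.10 to 0.041 over single libraries left out), Ctsa in brain tissue without LPS replicate 3 (-0.0078), without LPS replicate 4 (-0.0037) or without untreated replicate 3 (-0.014, range -0.014 to 0.092), and Ctsb in the interaction without adult LPS replicate 1 (-0.027, range -0.027 to 0.10). The cause was not tested. Total-count scaling shifted the median over all genes (log2) from -0.04 to 0.07 with GM-CSF and from -0.02 to -0.19 between the cytokines, and the calls over all genes from 1222 (548 higher) to 1274 (814 higher) and from 1833 (933 higher) to 2208 (694 higher). The interaction calls of Ctss and Ctsf lay at the fold limit: without adult LPS replicate 4, or brain LPS replicate 3 or 4, Ctsf had -0.57, -0.56 and -0.58, and Ctss had -0.61 with RLE scaling or DESeq2.

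Replicate numbers are shared between groups in the labels, but not every same-numbered pair deviated together (correlations of -0.033 to 0.021 in adult microglia, -0.078 to 0.043 in brain tissue and -0.041 to 0.184 in slices), so the numbers were not taken as pairs. With the replicate block 5 genes were called with TNF, 5 with GM-CSF, 2 between the cytokines (Ctsf had -0.51), 5 in adult microglia, 3 in brain tissue and 3 for the interaction. In brain tissue Ctsc had 80 to 241 and Ctsh 69 to 162 counts per library, which limits the precision of their values.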
